A study of Mus musculus with 3 samples.

Results

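The sites described here are the poly(A) sites of mouse embryonic stem cells that lie on an autosome, carry the deposited region code TE and have the canonical poly(A) signal AATAAA at an offset of -40 to -10. The offset is the distance in bases from the site to the beginning of the hexamer, with the site's own base counted as -1. The rule used the region code and the sequence and no measured level. It selected 15457 of 56377 autosomal TE sites (27.4%) and of 178115 sites listed in all. The other TE sites were divided by the same window into 5643 sites with ATTAAA and no AATAAA, 12275 sites with another of the 18 listed hexamers, and 23002 sites with none.

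The cells were F121-9, a hybrid line that carries 1 set of chromosomes from the CAST strain and 1 from 129, and the assay was PAS-seq with the QuantSeq protocol, which reads the 3′ ends of polyadenylated RNA. The study has 1 group of 3 libraries, biological replicates 1, 2 and 3, all from passage 14 and 500 ng of RNA, with no treatment named. The libraries held 10147672, 13513327 and 13040620 reads at listed sites. No label names separate cultures, so the spread between the libraries may be technical, and with 1 group every comparison below is between sites within the same libraries. The meaning of the code TE is not given in the sources used here. In the GENCODE M21 annotation, 14237 canonical sites lay in a terminal exon, 1219 lay within 1000 bases downstream of a gene and 1 had no gene on its strand.

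The 3′ end of most messenger RNAs is made by cleavage of the transcript and addition of a poly(A) tail. The cleavage and polyadenylation specificity factor (CPSF) binds the signal a short distance upstream of the cut through its subunits Cpsf4 and Wdr33, and another subunit, Cpsf3, is the nuclease. The cleavage stimulation factor (CstF) binds U-rich and GU-rich sequence downstream of the cut, and the CFIm complex of Nudt21 with Cpsf6 or Cpsf7 binds UGUA upstream. ATTAAA and other variants of the hexamer serve as weaker signals, and a gene with several sites can end its transcripts at different places in the terminal exon.

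Canonical sites of 9 genes with very high mean levels illustrate the arrangement, in particular how far the signal stood from the site. The 30 bases that end at each site are given 5′ to 3′ in the mm10 sequence, with the signal in capitals.
Rpl32, chr6:115805512-115805541, minus strand: tttatgtttaAATAAAatcacaaaacctgc
Rps20, chr4:3834473-3834502, minus strand: aagacaactgAATAAAtcgtcttaatggtc
Rpl13, chr8:123105221-123105250, plus strand: cAATAAAttttccataaagcaaaagctggg
Rpl8, chr15:76906290-76906319, plus strand: ctAATAAAgtacgtcctttggctaatccgg
Rack1, chr11:48806069-48806098, plus strand: AATAAActggctttctgaaactggcttcta
Mt2, chr8:94173533-94173562, plus strand: taactgacAATAAAagccgttgacttgatt
Rps12, chr10:23785184-23785213, minus strand: taAATAAAttttggctgatttttctcttgt
Rps9, chr7:3706868-3706897, plus strand: gctgaaaAATAAAaaagaattgatacttgg
Rps26, chr10:128624537-128624566, minus strand: cctggaaaAATAAAatggaagttgtacttt

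Levels are in RPM, reads at a site scaled to the size of the library, where 1 read is worth 0.0902, 0.0673 and 0.0711 RPM in replicates 1, 2 and 3. The site of Rpl32, a protein of the large ribosomal subunit, had 5142, 5692 and 5658 RPM in replicates 1, 2 and 3. That of Rps20, of the small subunit, had 5081, 4839 and 6421 RPM. Rpl13 had 5119, 4537 and 6253 RPM. Replicate 3 was the highest library at the last 2 of these sites and replicate 2 at Rpl32. Mt2, a metallothionein that binds zinc and other metals, had 3991, 4333 and 4336 RPM. The 9 sites had means of 3833 to 5498 RPM, and the signal began 20 to 30 bases upstream of each. Of these sites, 7 lay in a terminal exon and those of Rpl13 and Rpl8 lay 6 and 5 bases past the annotated end. Of the 58 canonical sites of 1000 RPM or more, 24 belonged to genes of ribosomal proteins. Such genes have near-identical pseudogenes, and the treatment of reads that map to several places is not given in the sources used here, so their levels are uncertain.

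Canonical sites made up 27.4% of the TE sites and held most of the reads. Their share of the autosomal TE reads was 62.5% in replicate 1, 63.7% in replicate 2 and 63.8% in replicate 3 (mean 63.3% ± 0.708, SD, n = 3), from 5462421, 7477863 and 7773434 reads. The sites with ATTAAA held 13.6% ± 0.184, those with another hexamer 10.9% ± 0.177 and those with none 12.2% ± 0.862. The most read TE site of all, in Gm42418 on chromosome 17, had no listed hexamer and held 7.40% of TE reads by itself. Canonical sites also recurred more often: 65.2% had reads in all 3 libraries, against 55.0% with ATTAAA, 36.8% with another hexamer and 22.5% with none. Among TE sites of 1, 10, 100 and 1000 RPM or more, the canonical signal was present at 49.2%, 63.3%, 68.8% and 80.6%.

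**Figure D1:**
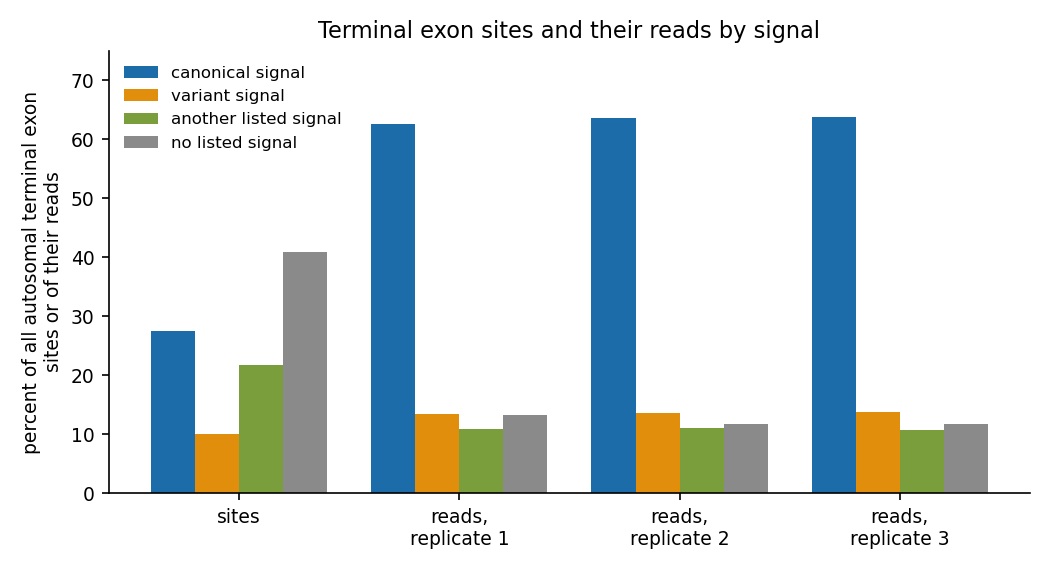
Percent of autosomal terminal exon sites (left group) and of their reads in each of the 3 libraries, by signal in the window: canonical (AATAAA), variant (ATTAAA without AATAAA), another listed hexamer, or none. Canonical sites are 27.4% of sites and 62.5% to 63.8% of reads, while sites with no listed signal are 40.8% of sites.

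The level of a typical canonical site was then compared with the other TE sites inside each library. The median canonical site had 2.98, 3.10 and 3.63 RPM in replicates 1, 2 and 3, and the median ATTAAA site 1.35, 1.41 and 1.64 RPM. Sites with another hexamer had medians of 0.271, 0.471 and 0.142 RPM, and sites with none had 0.0902, 0.0673 and 0.0711 RPM, the value of 1 read in each library. The canonical median was the highest in every library. On the scale of log2(RPM + 0.05), canonical sites were higher than ATTAAA sites by 1.11 ± 0.011 (SD, n = 3), than sites with another hexamer by 3.36 ± 0.84, and than sites with none by 4.70 ± 0.25. All of these differences had the same sign in 3 of 3 libraries, but the exact two-sided sign-flip test over 3 libraries cannot go below p = 0.25, which is its value for each of the 10 level differences given in this and the next paragraphs (also 0.25 after Benjamini-Hochberg adjustment over the 10). Over sites with reads in every library the differences were 0.67, 1.58 and 3.50, so the canonical sites were still the highest, by less than over all listed sites. With a pseudocount of 0.5 RPM the differences from sites with another hexamer and with none were 2.25 and 2.69.

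Most canonical signals stood close to 20 bases from the site. The signal nearest the site began at an offset of -25 to -16 in 73.8% of canonical sites, which held 70.4% ± 0.110 of the canonical reads, and -20 was the most frequent single offset (11.1% of sites and 15.3% ± 0.0932 of reads). Signals at -40 to -31 were found at 1362 sites, with medians of 3.16, 3.43 and 4.20 RPM in the 3 libraries. The 411 sites with the signal at -15 to -10 were 2.66% of canonical sites and held 0.289% ± 0.0265 of the reads. Their medians were 0.0902, 0.269 and 0.0711 RPM, below every other stretch of the window, and 33.3% of them had reads in all 3 libraries. Sites with the signal at -25 to -16 had medians of 3.34, 3.37 and 3.91 RPM and those with it elsewhere in the window 2.44, 2.42 and 2.92 RPM, a log2 difference of 0.44 ± 0.024, or 0.14 ± 0.023 over sites with reads in every library. Elsewhere was not uniformly lower, since the sites at -40 to -31 had higher medians than those at -25 to -16 in replicates 2 and 3.

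**Figure D2:**
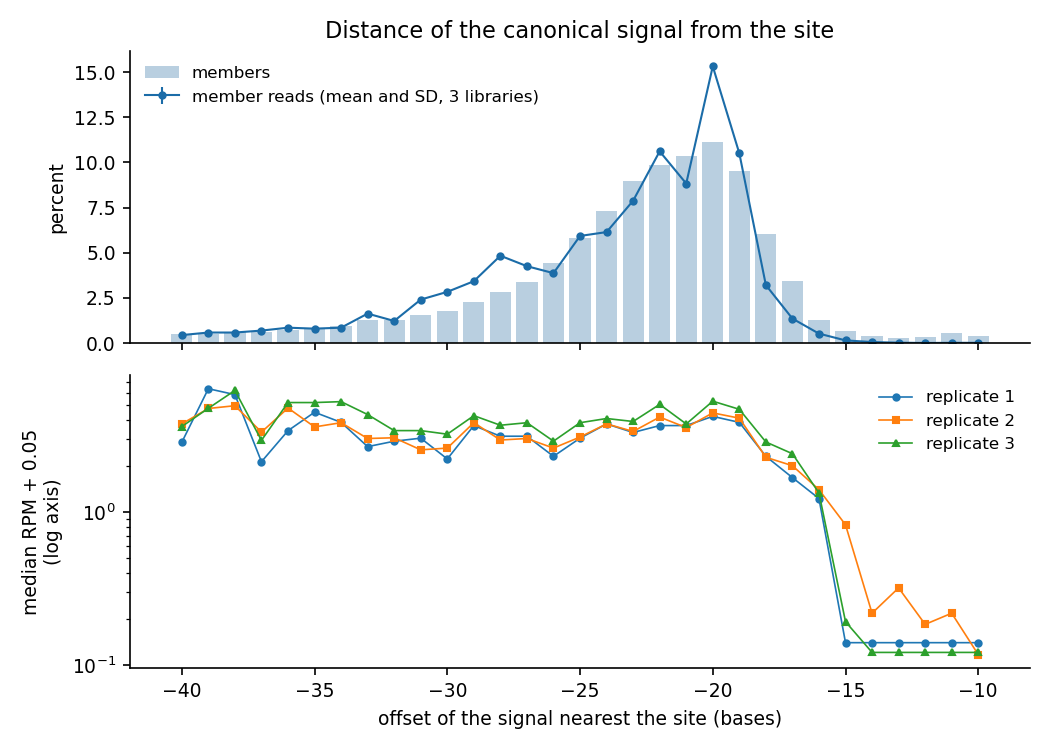
Upper panel: percent of canonical sites (bars) and of their reads (points, mean and SD of 3 libraries) by the offset of the signal nearest the site, in bases. Lower panel: median RPM + 0.05 at each offset in each library, on a log axis, with the lowest medians from -15 to -10.

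The edges of the rule fell differently on either side. The sites with the signal at -40 to -38, just inside, had a median of the mean RPM of 5.14, and the 174 sites with it at -43 to -41, just outside, had 3.14. At the near edge the 198 sites with the signal at -12 to -10 had a median of 0.237 RPM and the 169 sites at -9 to -7 had 0.0673 RPM. All 666 sites with the signal at -60 to -41 had a median of 2.01 RPM. Medians were thus lower outside than inside at both edges, and low on both sides of the near edge. At the far edge the upper quartile was not lower outside, with 27.6 RPM at -43 to -41 and 26.9 RPM at -40 to -38.

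A single copy of the signal was the rule. Of the 15457 sites, 14619 had 1 AATAAA in the window and 838 (5.42%) had 2 or more, while 562 also had ATTAAA and 10461 (67.7%) had no other listed hexamer. Sites with 2 or more copies had medians of 1.35, 1.75 and 1.99 RPM, against 3.16, 3.16 and 3.77 RPM with 1 copy. They were lower in 3 of 3 libraries, by a log2 difference of -0.98 ± 0.19, and by -0.46 ± 0.25 over sites with reads in every library.

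Sequence that the rule did not use was also shared. All motifs were searched on the strand of the RNA only, and windows for TGTGT and TTTTT are the same and can hold both. TGTGT lay in the 40 bases downstream of 16.3% of canonical sites, against 8.62% in a window of the same length further downstream. It lay downstream of 15.7% of ATTAAA sites, 14.3% of sites with another hexamer, 10.7% of sites with none and 9.91% of all autosomal sites. TTTTT followed 17.3% of canonical sites (8.42% in the distant window, 16.8% at all autosomal sites), which is fewer than the 25.9% of sites with no listed hexamer. TGTA, the CFIm motif, lay 41 to 100 bases upstream of 37.5% of canonical sites, against 26.1% in a window of equal length downstream and 29.2% at all autosomal sites, and of 39.3% of ATTAAA sites and 35.0% of sites with another hexamer. A match shows only that the letters are present. A-rich sequence downstream of a site (12 or more A, or 6 in a row, in 20 bases), from which a primer of T can start inside a transcript, followed 1.48% of canonical sites, 1.98% of ATTAAA sites, 6.22% of sites with another hexamer and 12.4% of sites with none. The A-rich canonical sites held 0.133% ± 0.0102 of the canonical reads.

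Base composition by position showed these features as broad peaks. Adenine reached 61.7% of canonical sites 18 bases upstream, where the signals overlap, against 28.0% at sites with no listed hexamer. Thymine made up 41.7% of bases 20 bases downstream, against 34.9% at sites with no listed hexamer, but 6 bases downstream it made up 37.6% at canonical sites and 42.5% at sites with none. The base of the site itself was C at 38.4%, T at 32.1%, G at 25.8% and A at 3.66% of canonical sites, and the base after it was A at 74.8%. At sites with no listed hexamer the base after the site was A at 42.0%. An A encoded there cannot be told from the A of a tail in a read that spans the junction.

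**Figure D3:**
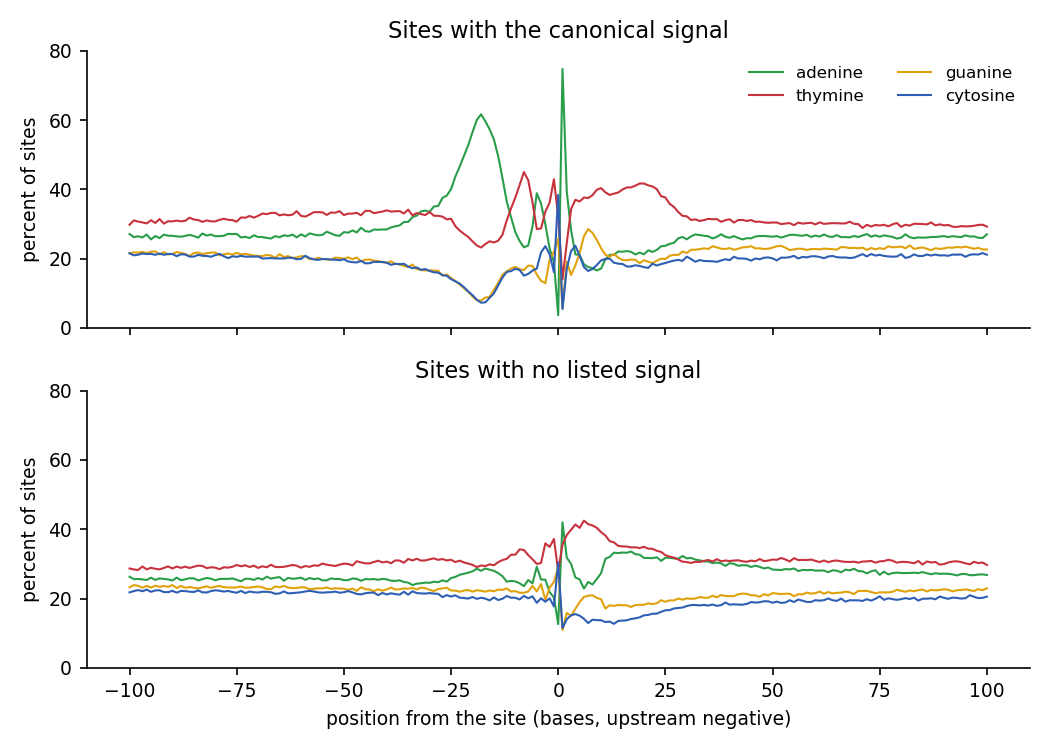
Percent of sites with each base at each position from 100 bases upstream to 100 bases downstream, at the 15457 canonical sites (upper panel) and the 23002 sites with no listed signal (lower panel). Adenine peaks at 61.7% at position -18 at the canonical sites, and both panels have thymine-rich sequence downstream and an adenine peak directly after the site.

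Levels differed with some of these motifs. The 2524 canonical sites with TGTGT downstream had medians of 5.32, 5.62 and 6.61 RPM in replicates 1, 2 and 3, and the 12933 sites without it 2.71, 2.83 and 3.27 RPM. The difference was 0.98 ± 0.021 (log2, SD, n = 3), and 0.49 ± 0.024 over sites with reads in every library. For TGTA upstream it was 0.45 ± 0.067, and 0.15 ± 0.048 over sites with reads in every library. For TTTTT it was 0.11 ± 0.024 and turned to -0.075 ± 0.016 over sites with reads in every library, so no direction is given for it. The 228 A-rich canonical sites were lower than the rest by a log2 difference of -4.29 ± 0.83, with medians of 0.0902, 0.269 and 0.0711 RPM, which is 1 read in replicates 1 and 3. Over sites with reads in every library (66 of the 228) the difference was -2.10 ± 0.36.

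Canonical sites lay at annotated transcript ends more often than other TE sites. Their median distance to the nearest annotated end on the strand was 5 bases, and 67.4% lay within 50 bases. The same held for 50.1% of ATTAAA sites, 29.6% of sites with another hexamer and 24.2% of sites with none. Among sites of 10 RPM or more the classes were closer, with 82.8%, 73.1%, 61.9% and 47.9% in the same order. The canonical sites within 50 bases of an end held 85.9% ± 0.247 of canonical reads. A further 2539 canonical sites (16.4%) lay more than 500 bases from any annotated end. Protein-coding genes held 94.2% of canonical sites, and 319 sites were in lincRNA genes, with a median of 0.675 RPM against 3.75 RPM in protein-coding genes.

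The place of a site within its gene was examined in 8864 genes of 5 RPM or more at TE sites, counting sites with at least 5% of these reads. The canonical signal was present at 70.7% of sites that stood alone, at 62.7% of the most distal sites of genes with several, at 34.3% of the most proximal sites and at 33.9% of those between. A canonical site that stood most distal held a median of 60.6% of the gene's TE reads, and one that stood most proximal 31.8%.

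By gene, 10778 of 15868 genes with a TE site had a canonical one, 7616 of them a single one. The genes with most were Ube2d3, which encodes an ubiquitin-conjugating enzyme, with 9, Syncrip, an RNA-binding protein, with 8, and Cpsf6, a subunit of CFIm, with 7. Use of these sites was unequal. In Ube2d3 the sites spanned 12678 bases and ranged from 0.0224 to 84.6 RPM, and the highest held 43.4% of the gene's TE reads. That site had 78.9, 70.7 and 104 RPM and the next 34.0, 25.3 and 47.9 RPM, so replicate 3 was highest at both. In Syncrip the highest site had 104, 91.2 and 114 RPM and held 60.1% of the gene's TE reads. In Cpsf6 the leading sites were close in level, with 36.5, 21.7 and 25.9 RPM at one and 32.2, 30.7 and 12.2 RPM at the other, and their libraries overlapped.

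Genes tended to have nearly all or nearly none of their TE reads at canonical sites. Of 7329 genes with 10 RPM or more at TE sites, 3542 (48.3%) had 90% or more of these reads at canonical sites, 1894 (25.8%) had under 10% and 1893 lay between. No canonical TE site was listed for 1389 of them. The most read site of these 1389 genes had ATTAAA in 650, another hexamer in 582 and none in 157.

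Within genes that have both kinds of site, summed canonical and other TE sites were compared as log2 ratios of RPM + 0.05 in each library (limma, called at an adjusted p under 0.05 and at least 2-fold). Of 6127 genes tested, canonical sites were higher in 4113 (67.1%) and other sites in 906 (14.8%), with a median log2 ratio of 3.71. In the 5 called genes with the highest level, Rpl32, Rps20, Rpl13, Rpl8 and Rack1, a scaffold protein of the small ribosomal subunit, canonical sites held 99.7% to 100% of TE reads in each library. Of the 906 genes with other sites higher, the most read site had ATTAAA in 417, another hexamer in 377, none in 109 and AATAAA in 3. A ratio on this scale understates the change of rarely used sites.

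Genes with high levels among these 906 were Rpl26, Rps24, Rpl27a, Eif2s2, Rad23b, Ywhae, Npc2, Bcat1 and Gars. Npc2, a cholesterol-binding protein of the lysosome, had 855, 781 and 905 RPM at an ATTAAA site and 0.992, 1.28 and 2.84 RPM at its canonical site (log2 ratio -9.17 ± 0.36, SE, limma adjusted p = 0.000103). Bcat1, an aminotransferase of branched-chain amino acids, had 820, 731 and 857 RPM at a site with GATAAA 23 bases upstream and 15.1, 11.98 and 19.9 RPM at its canonical site (log2 ratio -5.72 ± 0.27, limma adjusted p = 0.000111). Ywhae, a 14-3-3 protein, had the largest canonical share of these 9 genes, 14.3% ± 2.19 of TE reads (SD, n = 3). In none of Npc2, Bcat1 and Ywhae did the libraries of the 2 kinds of site overlap. At Rpl26 and Rps24 the most read site had no listed hexamer in the window and lay 24 and 44 bases from the annotated end.

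Among genes of pluripotency some had almost all of their TE reads at canonical sites and others hardly any. The same was seen among all genes of 10 RPM or more, of which 48.3% had 90% or more and 25.8% under 10% there. The mean canonical share of all genes of 10 RPM or more had a median of 88.7%. Of 14 core pluripotency genes, 10 had 10 RPM or more at TE sites, with 90% or more of reads at canonical sites in 4, under 10% in 4 and 2 between. In the within-gene test canonical sites were higher in 6 of 7 and other sites in 1, against 67.1% and 14.8% over all genes tested. Nanog, a homeodomain factor of the ES state, had 571, 781 and 816 RPM at canonical sites, 100% ± 0.0330 of its TE reads. Sox2, its partner factor of the HMG-box family, had 527, 696 and 577 RPM, 98.2% ± 0.826. Trim28, a corepressor of retroelements, had 1470, 1472 and 1466 RPM, 99.6% ± 0.0285, the narrowest spread of these genes. L1td1, an RNA-binding protein of ES cells, had 484, 458 and 518 RPM at a site with ATTAAA and 0.0970% ± 0.156 at canonical sites (named after its values were seen). Dppa4, Tdgf1 and Dppa2 had no canonical TE site, and their levels were 194 ± 7.04, 161 ± 11.6 and 36.4 ± 4.94 RPM.

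Of 17 naive pluripotency genes, 13 had 10 RPM or more, with 90% or more at canonical sites in 4, under 10% in 4 and 5 between. Canonical sites were higher in 9 of 10 genes tested and other sites in 1 (67.1% and 14.8% over all genes tested). Esrrb, an orphan nuclear receptor, had 300, 253 and 335 RPM at its canonical site, 99.3% ± 0.647 of TE reads. Tfcp2l1, a transcription factor of the naive state, had 586, 535 and 659 RPM at canonical sites (97.0% ± 1.45), but its main signal stood at -40, the edge of the rule, and the call reversed where the window ended at -30. Klf2, a Krüppel-like factor, had no canonical TE site and 619, 615 and 473 RPM at a site with ATTAAA. Tdh, the threonine dehydrogenase on which mouse ES cells depend, had none either. It had 435, 458 and 536 RPM at its most read site, also with ATTAAA. Sites of Klf2 and Tdh with other deposited codes were not examined. Summed over the list, 44.4% ± 0.918 of TE reads were at canonical sites, against 78.3% ± 1.03 for the core list. These sums follow the genes with the highest levels, and the median share per gene of 10 RPM or more was 83.7% in the naive and 85.4% in the core list. The most read sites of Esrrb and Tfcp2l1 had AATAAA 31 and 40 bases upstream. Those of Nanog, Sox2, L1td1, Klf2 and Tdh, printed with the hexamer in capitals, had it 21 to 26 bases upstream.
Nanog, chr6:122714603-122714632, plus strand: taaacaaAATAAAacactaattttaccttt
Sox2, chr3:34652429-34652458, plus strand: gataAATAAAtttttgaaatatggacactg
L1td1, chr4:98738450-98738479, plus strand: acatATTAAAgcttgaagtttgcatttgtc
Klf2, chr8:72321320-72321349, plus strand: tttttaATTAAAgttttggatctttggagg
Tdh, chr14:63492459-63492488, minus strand: ttgtatttaATTAAAttcaatttaagtatc

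Among defining genes of the line, Pou5f1 was close to 0 at TE sites (0.632, 0 and 0 RPM), and Zfp42 (1.74 ± 1.31 RPM) and Dppa5a (0.0224 ± 0.0389 RPM) were low there. Pou5f1 nevertheless had 113, 108 and 83.2 RPM at 1 site with AATAAA that carries another deposited code, DS, and therefore falls outside the rule. Zfp42 had 19.03 ± 2.91 RPM at sites of that code. Fn1, which fibroblasts and ES cells can both express, had 788, 778 and 843 RPM at canonical sites, and 5 of the 14 fibroblast and feeder markers had 10 RPM or more at TE sites. Of 12 2-cell-like markers, 1 had a TE site and 0 reached 10 RPM there. Markers of endoderm, mesoderm, neuroectoderm and trophoblast reached 10 RPM in 2 of 10, 1 of 9, 3 of 9 and 2 of 9 genes. Of these markers, canonical sites were higher in 4 of 4 fibroblast genes tested, 3 of 3 neuroectoderm genes and 1 of 2 trophoblast genes, and other sites were higher in 1 trophoblast gene and in the 1 endoderm gene tested, Ttr. Over all genes tested these calls were 67.1% and 14.8%.

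Genes of the cleavage machinery divided much like all genes. Of 25 such genes, 22 had 10 RPM or more, with 90% or more of reads at canonical sites in 11, under 10% in 6 and 5 between (48.3%, 25.8% and 25.8% over all genes of this level), and canonical sites were higher in 14 of 18 tested and other sites in 3 (67.1% and 14.8% over all genes tested). Cpsf3, the nuclease, had 188, 182 and 222 RPM at its canonical site (99.6% ± 0.455 of TE reads), and Pabpc1, the cytoplasmic poly(A)-binding protein, had 464, 538 and 612 RPM at canonical sites (98.6% ± 0.475). In both genes the canonical sites lay far above the other TE sites in each library. Cpsf1, the largest subunit of CPSF, had no canonical TE site and 256, 248 and 254 RPM at a site with AAGAAA 18 bases upstream. That site also has TATAAA, another listed hexamer, further upstream in the window. Capitals below mark only AAGAAA, which is nearer the site. Cpsf4, which binds the signal, had none and 89.6 ± 20.2 RPM, with ATTAAA at its most read site, and Pabpn1, the nuclear poly(A)-binding protein, had none and 91.4 ± 3.50 RPM. The 30 bases at the main sites of Cpsf3 and Cpsf1 are shown as a contrast within CPSF.
Cpsf3, chr12:21314806-21314835, plus strand: gttcttcaAATAAAataaccttagtttctc
Cpsf1, chr15:76595809-76595838, minus strand: gtataaaacacaAAGAAAacgatttctttc

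Other groups are given with the share of their TE reads at canonical sites, which was 63.3% over all TE sites, and with their calls, which were 67.1% canonical higher and 14.8% other higher over all genes tested. Cell cycle genes had 66.7% ± 0.767, with canonical sites higher in 17 of 21 tested and other sites in 2. Top2a, the topoisomerase of mitotic chromosomes, had 780, 801 and 914 RPM at its canonical site (98.9% ± 0.508 of TE reads). Of the MCM helicase subunits, Mcm7 had 778, 747 and 625 RPM at a canonical site (99.9% ± 0.0580). In contrast, Mcm3 and Mcm5 had no canonical TE site and 544 ± 13.3 and 389 ± 40.1 RPM at TE sites. The most read site of Mcm3, with 440, 378 and 440 RPM, is followed by A-rich sequence. Sites of Mcm3 and Mcm5 with other deposited codes were not examined. Glycolysis genes had 85.5% ± 1.67, with canonical sites higher in 8 of 11 and other sites in 3. Aldoa, an aldolase, had 2183, 2378 and 2577 RPM at its canonical site, 100% ± 0.0254 of its TE reads. Hk1, Gpi1 and Pfkp, which act early in the pathway, had 1.26% ± 0.326, 0.777% ± 0.284 and 0.900% ± 0.426 at canonical sites and were named after their values were seen.

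Translation factors had 76.4% ± 0.404 of TE reads at canonical sites, with these higher in 12 of 17 tested and other sites in 4, against the same 67.1% and 14.8% over all genes tested. Eef2, the elongation factor of translocation, had 3605, 3570 and 4331 RPM there. Eef1a1 and Eef1g had no canonical TE site and 529 ± 69.2 and 747 ± 91.0 RPM at TE sites. The level of Eef1a1 is uncertain for the same reason as those of ribosomal protein genes, namely pseudogenes. Sites of these genes with other deposited codes were not examined. Chromatin regulators had 75.02% ± 2.19, with canonical sites higher in 15 of 19 and other sites in 2. Actin and tubulin genes had 90.05% ± 0.768, with canonical sites higher in 10 of 10 tested. Of 13 such genes with 10 RPM or more, 3 had no canonical TE site and could not be tested. Formative and primed pluripotency genes had 58.2% ± 2.94, with canonical sites higher in 3 of 4 and other sites in 0. The 18 replication-dependent histone genes, whose messages normally end without a poly(A) tail, had 13.5% ± 8.02, and 1 of them, Hist1h1c, had 10 RPM or more (10.7 ± 3.85 RPM) and did not pass the within-gene test (log2 ratio 0.27 ± 0.67, limma adjusted p = 0.722).

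**Figure D4:**
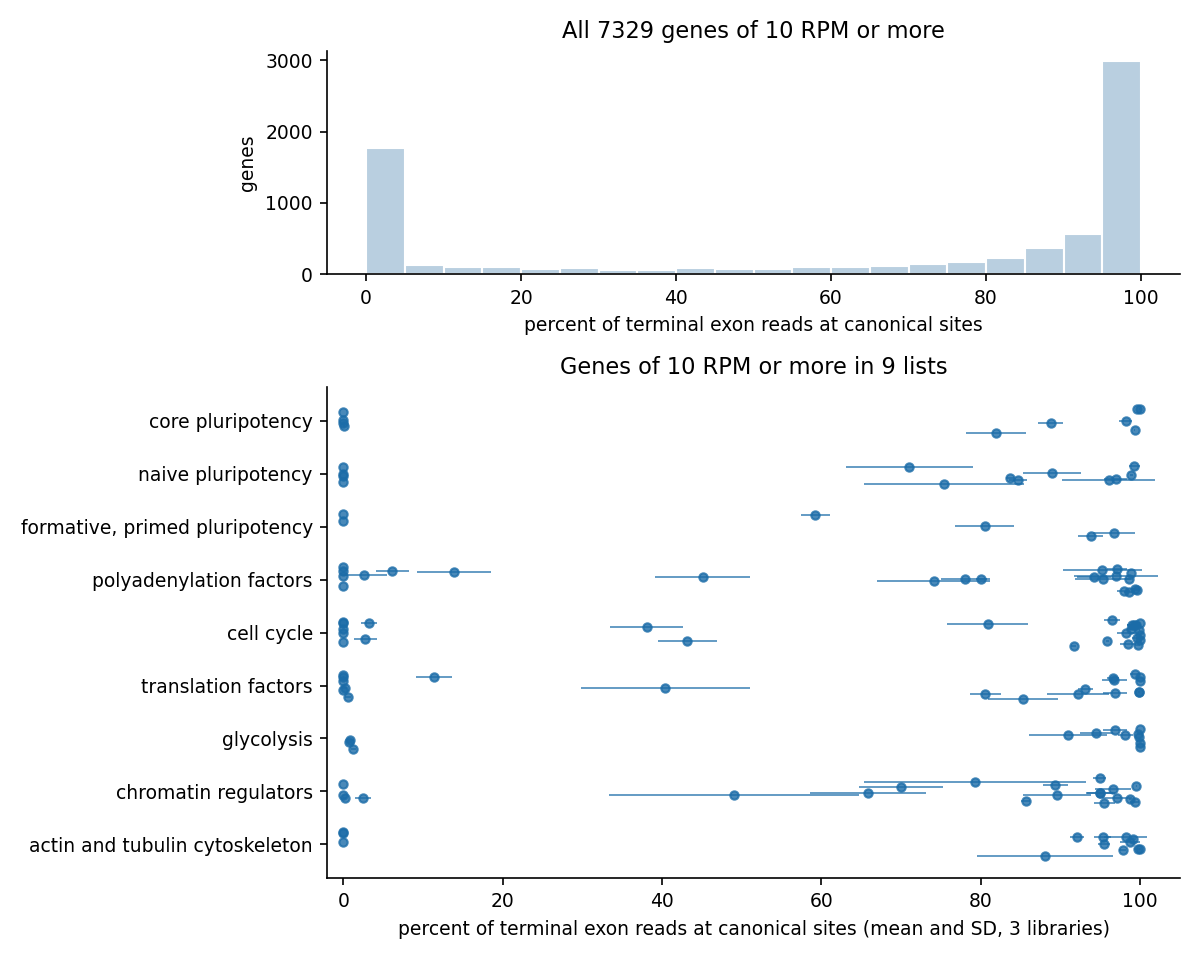
Upper panel: number of genes by percent of terminal exon reads at canonical sites, for the 7329 genes of 10 RPM or more. Lower panel: the same percentage for genes of 9 lists (points, mean and SD of 3 libraries; vertical scatter within a list has no meaning). Most genes lie near 0% or near 100% in both panels.

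To set the signal beside the place of a site, genes with exactly 2 TE sites of at least 5% of reads each were compared as log2 of distal over proximal RPM + 0.05 (limma, same thresholds). Of 2523 genes, the distal site was higher in 1249 (49.5%) and the proximal site in 503 (19.9%). The median log2 ratio was 2.69 in the 991 genes whose distal site alone was canonical and 0.71 in the 649 with 2 canonical sites. It was 1.95 in the 558 with no canonical site, whose sites can still carry ATTAAA or another hexamer. In the 325 genes whose proximal site alone was canonical it was -0.63. With a site minimum of 10% these medians were 1.54, 0.48, 0.95 and -0.12, and with one of 2% they were 4.07, 1.34, 3.15 and -1.39. The distal site was called higher in 627 and the proximal in 108 of the genes with the signal only distal. With the signal only proximal the counts were 86 and 120, with 2 signals 253 and 163, and with no canonical site 283 and 112. The distances between the sites differed as well. Their medians were 770 bases with the signal only distal, 424 with it only proximal, 813 with 2 signals and 379 with no canonical site.

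Medians taken within each library gave the same order. They were 2.25, 2.50 and 2.37 with the signal only distal, and -0.51, -0.52 and -0.38 with it only proximal. The difference between these 2 kinds was 2.84 ± 0.15 (log2, SD, n = 3), and the libraries of the kinds did not overlap. Genes with 2 signals lay between, with 0.53, 0.65 and 0.73. Over the 6 differences between kinds, each had the same sign in 3 of 3 libraries, with an exact two-sided sign-flip p of 0.25, the smallest possible, also after Benjamini-Hochberg adjustment. The order of the kinds held at every distance: with sites under 200 bases apart the medians were 2.83, 0.29 and -0.55 for the signal only distal, at 2 sites and only proximal, and with sites 1000 bases or more apart they were 2.70, 1.19 and -0.78.

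The size of the ratio varied with the other signal of the pair. With a canonical distal site, the median log2 ratio was 1.31 against ATTAAA (228 genes), 2.64 against another hexamer (403) and 3.19 against no hexamer (360). With a canonical proximal site it was 0.22 against ATTAAA (172 genes), -0.79 against another hexamer (104) and -2.02 against none (49). These medians are descriptions of genes and were not compared with a test.

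**Figure D5:**
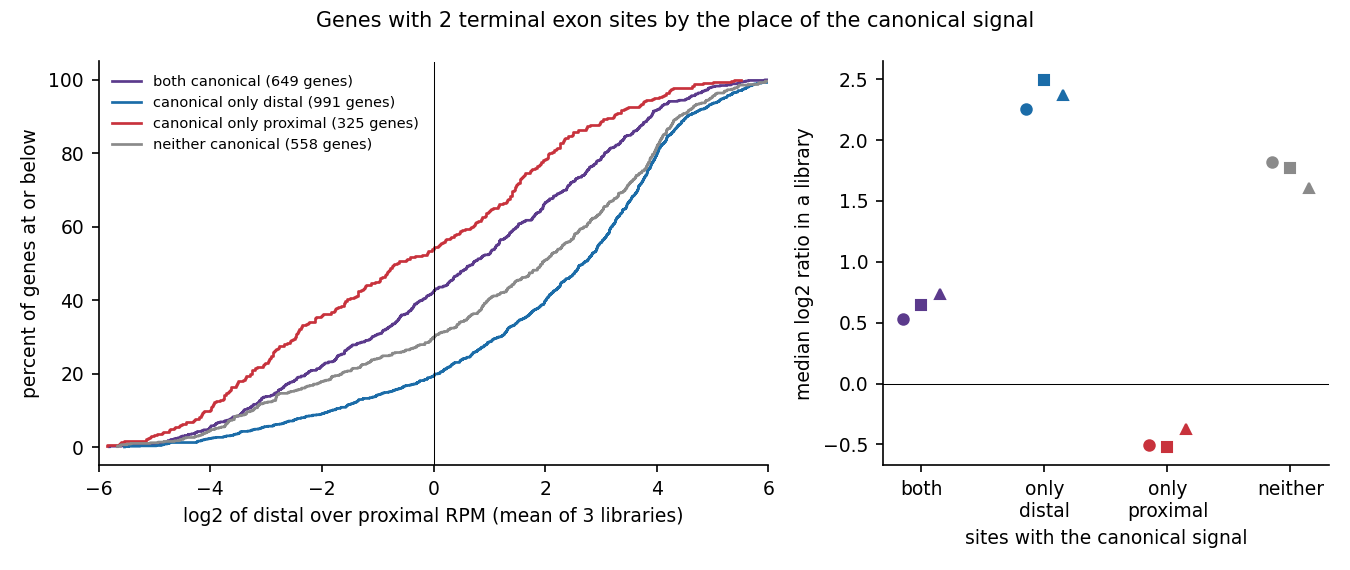
Left: cumulative percent of genes by log2 of distal over proximal RPM (mean of 3 libraries, shown from -6 to 6) for the 4 kinds of gene. Right: median log2 ratio of each kind in replicate 1 (circle), 2 (square) and 3 (triangle); genes with the canonical signal only at the distal site have medians of 2.25 to 2.50 and those with it only at the proximal site -0.52 to -0.38.

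Single genes of each kind show the levels behind these ratios, and the sites of 6 of them are printed so that the signals can be compared, the proximal site before the distal one. Capitals mark the hexamer that placed the site in its class.
Cct6a proximal, chr5:129846050-129846079, plus strand: caaaaATTACAtaagataagcatgttgtct
Cct6a distal, chr5:129846336-129846365, plus strand: tAATAAAtacttaaagagtgaagctactgg
Ash2l proximal, chr8:25817322-25817351, minus strand: tttgttttTATAAAgtgtcaaatgttttcc
Ash2l distal, chr8:25816871-25816900, minus strand: cAATAAAacttgttttcaagcttgtatggt
Kpnb1 proximal, chr11:97161532-97161561, minus strand: cgatctGATAAAataaccatttggaaactg
Kpnb1 distal, chr11:97159717-97159746, minus strand: ctgAATAAAgtccgctttatttttattttc
Rpl22 proximal, chr4:152332461-152332490, plus strand: AATAAAatttaggaacaaaaccggtggttt
Rpl22 distal, chr4:152334038-152334067, plus strand: cactttttgtATTAAAgtggctgacacatg
Rplp0 proximal, chr5:115563482-115563511, plus strand: gaaagatggaAATAAAggcttacttctctt
Rplp0 distal, chr5:115563606-115563635, plus strand: aaaATTAAAgctcctagtgtttttgtgggc
Nectin2 proximal, chr7:19724165-19724194, minus strand: acactcaggagctAATAAAtgccttgtcgg
Nectin2 distal, chr7:19716642-19716671, minus strand: actttGATAAAgtcttgtgttttctgtgag

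Cct6a, a subunit of the TRiC chaperonin, had 74.5, 76.0 and 78.8 RPM at its proximal site with ATTACA and 526, 492 and 570 RPM at its canonical distal site 286 bases on (log2 ratio 2.79 ± 0.11, SE, limma adjusted p = 9.94e-05). Every library of the distal site lay above every library of the proximal one. Cct8, of the same chaperonin, had 228, 186 and 177 RPM at a proximal site with no listed hexamer and 1324, 1596 and 1252 RPM at the canonical distal site. Ash2l, a subunit of histone H3 lysine methyltransferases, had 189, 202 and 169 RPM at TATAAA and 417, 389 and 538 RPM at the distal AATAAA (log2 ratio 1.25 ± 0.17, limma adjusted p = 0.00208). Its groups of libraries did not overlap either.

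The opposite use with the same order of signals was also seen. Kpnb1, the importin beta receptor of nuclear import, had 397, 397 and 371 RPM at a proximal site with GATAAA and 140, 200 and 115 RPM at the canonical distal site (log2 ratio -1.39 ± 0.17, limma adjusted p = 0.00138). Psmb1, a proteasome subunit, had 534, 513 and 638 RPM at a proximal ATTAAA site and 35.6, 42.9 and 50.7 RPM at the canonical one. Hspa4, a heat shock protein, had 404, 420 and 454 RPM at a proximal ATTAAA site and 29.5, 44.3 and 30.4 RPM at the canonical one. In all 3 genes the proximal site was higher in every library.

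Where the proximal site alone was canonical, Rpl22 had 2066, 1930 and 2457 RPM there and 148, 165 and 155 RPM at its distal ATTAAA site (log2 ratio -3.78 ± 0.11, SE, limma adjusted p = 9.49e-05). Rplp0, a protein of the ribosomal stalk, had 1557, 1392 and 1221 RPM at AATAAA and 101, 130 and 108 RPM at ATTAAA 124 bases on. Hsp90aa1, an inducible chaperone, had 2292, 2022 and 2790 RPM at AATAAA and 610, 536 and 482 RPM at a distal site with AAGAAA that is followed by A-rich sequence. The proximal and distal sites of Hsp90aa1 lay 19 and 106 bases from the nearest annotated transcript end. Whether they lie in coding sequence was not tested. Nectin2, a cell adhesion protein, went the other way, with 88.0, 66.4 and 62.4 RPM at AATAAA and 191, 178 and 202 RPM at GATAAA 7523 bases on (log2 ratio 1.41 ± 0.17, limma adjusted p = 0.00135). Ipo5 and Sulf2, an importin and a heparan sulfatase, also had the distal site higher, with distal shares of 68.8% ± 4.26 and 93.8% ± 1.16.

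With AATAAA at both sites, place and level could go either way. Eef2 had 245, 213 and 327 RPM at its proximal and 3360, 3357 and 4004 RPM at its distal site, 142 bases on (log2 ratio 3.79 ± 0.10, SE, limma adjusted p = 9.49e-05). Anp32b, a histone chaperone, had 698, 935 and 872 RPM at its proximal and 120.6, 140 and 158 RPM at its distal site, 131 bases on (log2 ratio -2.58 ± 0.11, limma adjusted p = 0.00011). Rhoa, a GTPase of the cytoskeleton, had a distal share of 92.6% ± 0.764, and Cct5, another chaperonin subunit, 29.9% ± 3.14. In each of these 4 genes the library values of the 2 sites did not overlap. With AATAAA at neither site, Pcbp1, an RNA-binding protein, had 38.0, 22.2 and 33.8 RPM at its proximal and 464, 484 and 617 RPM at its distal site with ATTAAA.

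The spread between libraries at canonical sites was smaller at higher levels and close to that of the other classes. Across the 5212 canonical sites of 10 RPM or more, Pearson's r of log2(RPM + 0.05) was 0.937, 0.932 and 0.942 for the pairs of libraries, as a description across sites that share their libraries. The coefficient of variation between libraries had a median of 18.7%. It was 25.7% at 10 to 30 RPM and 12.2% at 100 to 300 RPM, where counting error alone would give 6.61% and 2.24%. At the same levels ATTAAA sites had 26.3% and 11.5%, sites with another hexamer 25.3% and 11.2%, and sites with none 24.5% and 12.1%. Replicate 3 was the highest library at 2657 of the 5212 sites; this library has no reads on X, Y, the mitochondrial genome and unplaced contigs, and on the autosomal scale the 2 medians were 24.9% and 10.8%. The widest spread belonged to Atxn2l (0.0902, 30.8 and 3.13 RPM), Rnf5 (1.26, 34.0 and 8.32 RPM) and Cinp (0.451, 26.8 and 8.25 RPM), each highest in replicate 2 and lowest in replicate 1.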

How the data were processed

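Site tables of 3 PAS-seq libraries were used. Site levels are RPM values made by the authors, and the site's mean RPM and the fraction of libraries with reads stand beside them in the deposited tables. The tables use mm10 and GENCODE M21, per the README deposited with them; which aligner and site caller were used, and how reads with several matches were treated, is not given in the sources used here. RPM values were whole multiples of 1 read in 100% of cases (tolerance 0.01 reads), which gave library totals of 11085428, 14855484 and 14064461 reads; this count limits the precision of low sites.

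Members were autosomal TE sites with AATAAA at -40 to -10 in the deposited hexamer column. Members, gene lists and tests were chosen with earlier results of these data known. Sites were assigned to genes on their strand (terminal exon, within 1000 bases downstream, other exon, intron), an order set after the data were seen. Sequence was read from GRCm38, the build of mm10, of RefSeq.

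Levels were compared on the scale of log2(RPM + 0.05) as differences of medians inside each library, and the 3 differences were tested by exact sign flips. Genes of 5 RPM or more were tested with limma 3.58.1 in R 4.3.3 (trend on) on within-library log2 ratios, with calls that needed 2-fold or more and a p under 0.05 after Benjamini-Hochberg adjustment. Both kinds of site come from the same library, so the library pairs them. edgeR 4.0.16 on the recovered reads was an alternative and called 3920 and 816 genes within genes, and 1063 and 439 in 2-site genes. Tested on simulated data, the within-gene fit on 6127 genes recovered 19 of 100 changed 4-fold and 75 of 100 changed 16-fold. Of 5927 unchanged genes, 3 were called. The 2-site fit on 2523 genes recovered 60 and 76 of 100, with 4 of 2323 unchanged genes called. In the simulated data all genes but the changed ones had equal means, whereas most genes were called in the real data. The rates therefore do not give the power of the reported tests.

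Genes were named by rule: the 10 highest members, up to 4 genes per list with the highest canonical level and up to 3 of 10 RPM or more without a member, the 5 and 10 highest genes called in each direction, the 3 highest called 2-site genes per kind and direction, the 3 genes with most members, and the 3 of 10 RPM or more with the widest spread. Some genes that the rule names are not reported here.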

Additional observations from a re-analysis of the deposited data

Results flagged for a closer look

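Canonical terminal exon sites on the X chromosome lie outside the autosomal rule and entered no comparison. There were 548 of them among 1752 X-linked terminal exon sites, with 230087 reads in replicate 1 and 312955 in replicate 2, which is 79.4% and 78.7% of the X-linked terminal exon reads. Replicate 3 had 0 reads at them. This library has no reads anywhere on X, so its 0 cannot be read as a low count at these sites. The X-linked sites are given here because reads stand in data that the comparisons do not use.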

How the results depend on the processing

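With only sites that have reads in every library, the level differences were 2.07 (all other sites), 0.67 (ATTAAA), 1.58 (another hexamer) and 3.50 (none), 0.14 by offset, -0.46 by number of signals, 0.49 for TGTGT, 0.15 for TGTA and -2.10 for A-rich sites, and that for TTTTT reversed to -0.075. A pseudocount of 0.5 RPM gave 2.59, 0.92, 2.25 and 2.69 for the 4 classes, 0.39 by offset, 0.89 for TGTGT and -2.60 for A-rich sites. Without sites followed by A-rich sequence, an alternative chosen after seeing the data, the difference from sites with no hexamer was 5.26. The canonical share of TE reads was 55.9% for members in an annotated terminal exon and 56.9% with the window at -30 to -10. Both settings count fewer canonical sites against the same TE reads, so the share could only fall. It was 68.4% without the most read site, which has no listed hexamer, so there the share could only rise. The cause of the shifts in the level differences was not tested.

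Median ratios of 2-site genes depended on the minimum share of a site. At 10% they were 0.48 (2 signals), 1.54 (only distal), -0.12 (only proximal) and 0.95 (no canonical site). At 2% they were 1.34, 4.07, -1.39 and 3.15. Sites at least 100 bases apart gave 0.85 with 2 signals and -0.71 with the signal only proximal. Genes of 1 RPM or more gave 2.54 (only distal), -0.45 (only proximal) and 1.82 (no canonical site). The pseudocount of 0.5 RPM gave 2.39 (only distal) and 1.76 (no canonical site). Leaving out a library gave 2.56 to 2.58 (only distal) and -0.68 to -0.36 (only proximal), and 167 to 227 genes with the distal site higher for 2 signals and 57 to 76 for the signal only proximal, lowest without replicate 2 in both counts (fewer samples). Without replicate 2 the distal calls over all 2-site genes were 847.

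Without the replicate block, 4203 and 938 genes were called within genes and 1297 and 536 among 2-site genes, so the pairing by library moved no count by over 1.5 times. Of 609 values for 61 named genes in the within-gene test, 603 kept their side of the threshold and direction. Tfcp2l1 reversed to -10.74 with the window at -30 to -10, and Hist1h1c, not called, ranged from -0.15 to 0.54 with a library left out. Of 221 values for 24 named 2-site genes, 220 did, the exception being Ipo5 without replicate 1 (0.98). Depth limits low sites: the median site with no hexamer had 1 read.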
